A study of Mus musculus with 6 samples.

Results

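Expression of 10 genes of the YAP, TAZ and TEAD pathway was measured in primary muscle cells of the mouse oviduct. The genes were the coactivators Yap1 and Wwtr1 (which encodes TAZ), the 4 TEAD transcription factor genes Tead1, Tead2, Tead3 and Tead4, the inhibitors Lats2 and Amotl2, the LIM-domain adaptor Ajuba and the target gene Ankrd1. They were found by matching the Ensembl identifiers of the deposited count table to these symbols, and all 10 were present among its 54232 genes. All 10 passed the filter on low counts.

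The cells came from oviducts of females mated with a stud male and taken on day 2 of pregnancy, at 8 to 12 weeks of age. RNA-seq was performed on 3 WT libraries and 3 libraries of mice with conditional deletion of Pbrm1 (Pbrm1 cKO), which encodes a protein of the chromatin remodeler PBAF. In the mouse line of the study, floxed Pbrm1 was deleted by a cre expressed from the progesterone receptor gene (PR-IRES-cre), which directs deletion to cells that express this receptor. The labels call the controls WT, whereas a legend of the study names Pbrm1 fl/fl mice. Neither strain nor the number of mice behind a library was given by the labels, so p-values measure the spread between these libraries, which may be in part technical. The tissue was digested with enzymes, and the filtered cells were plated for 4 hours and then kept for a further 2 hours in fresh medium before RNA was made. No sort was described.

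YAP and TAZ are transcriptional coactivators that shuttle between cytoplasm and nucleus. They do not bind DNA themselves and reach their target genes through TEAD factors. The Hippo kinase cascade, which ends in the LATS kinases, phosphorylates YAP and TAZ and keeps them out of the nucleus, while stretch, stiff matrix and actin tension favor their nuclear entry, a regulation much studied in smooth muscle and fibroblasts. RNA levels, as measured here, do not show where the YAP and TAZ proteins lay or whether they were phosphorylated.

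Libraries held 15390818 to 18947947 counts, and 3 counts corresponded to 0.158 to 0.195 CPM, which are counts scaled to a common library total. Pbrm1 itself was measured at 170, 183 and 172 normalized CPM in WT and only at 43.5, 50.7 and 42.7 CPM in cKO (log2 fold change -1.94 with SE 0.064, adjusted p = 9.13e-11 by edgeR). Smooth muscle markers were present in every library, with Acta2 at a WT mean of 1287 CPM, but the smooth muscle regulator Myocd was at 4.60 CPM and Casq2 had at most 3 counts in a library. Markers of other cells were present as well. Summed over each list, leukocyte markers ranged from 704 to 755 CPM in WT and from 992 to 1069 in cKO, fibroblast markers from 6591 to 7309 and from 9911 to 10228, epithelial markers from 1041 to 1132 and from 1188 to 1324, and endothelial markers from 542 to 591 and from 458 to 494. Mesothelial markers ranged from 400 to 410 CPM in WT and from 396 to 429 in cKO, and pericyte markers from 105 to 123 and from 90.2 to 111. Smooth muscle markers ranged from 3662 to 3742 CPM in WT and from 4614 to 5219 in cKO. At the test used for all genes, 6 of 11 tested smooth muscle markers were higher in cKO and 1 lower, 9 of 10 leukocyte markers higher, 6 of 12 epithelial markers higher and 1 lower, 3 of 10 endothelial markers higher and 2 lower, 1 of 9 mesothelial markers higher and 5 lower, and 4 of 5 pericyte markers higher and 1 lower. Over all tested genes, 43.7% passed, 21.9% higher and 21.8% lower, so the endothelial and epithelial counts lay near that share. Casq2, Cd3e and Higd1b did not pass the filter on low counts. The part of these cells in the results was not tested. In such bulk samples, fewer cells of a type and less RNA per cell cannot be told apart.

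Promoter sequences are shown for the 6 genes that passed the test between the groups, with 1 window each, because TEAD factors are known to bind the hexamer GGAATG, also read as CATTCC on the other strand. Each sequence runs 5′ to 3′ on the strand of its gene, from 250 bases before to 50 bases after a RefSeq transcription start (assembly GRCm38.p6), and capitals mark the hexamer. The windows were chr14:54577612-54577911 for Ajuba, chr19:36119795-36120094 for Ankrd1, chr17:28350551-28350850 for Tead3, chr9:8004547-8004846 for Yap1 and chr3:57575827-57576126 for Wwtr1, all on the minus strand, and chr7:45215542-45215841 on the plus strand for Tead2.
Ajuba: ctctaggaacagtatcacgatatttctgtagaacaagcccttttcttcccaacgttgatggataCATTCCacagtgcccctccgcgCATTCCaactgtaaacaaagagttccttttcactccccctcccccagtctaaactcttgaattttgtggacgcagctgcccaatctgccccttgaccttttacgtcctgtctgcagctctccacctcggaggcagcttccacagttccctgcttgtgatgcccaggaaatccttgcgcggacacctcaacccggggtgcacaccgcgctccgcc
Ankrd1: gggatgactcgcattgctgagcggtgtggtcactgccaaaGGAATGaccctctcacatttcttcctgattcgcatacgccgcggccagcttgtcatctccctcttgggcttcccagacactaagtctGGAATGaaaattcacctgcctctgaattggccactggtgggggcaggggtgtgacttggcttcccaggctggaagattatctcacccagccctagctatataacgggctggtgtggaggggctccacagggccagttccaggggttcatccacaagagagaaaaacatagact
Tead3: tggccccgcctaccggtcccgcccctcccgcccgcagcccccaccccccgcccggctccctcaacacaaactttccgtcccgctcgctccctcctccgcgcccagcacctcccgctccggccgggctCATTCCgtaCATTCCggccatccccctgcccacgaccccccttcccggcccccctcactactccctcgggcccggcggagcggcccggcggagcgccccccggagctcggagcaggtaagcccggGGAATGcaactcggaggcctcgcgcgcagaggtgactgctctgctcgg
Tead2: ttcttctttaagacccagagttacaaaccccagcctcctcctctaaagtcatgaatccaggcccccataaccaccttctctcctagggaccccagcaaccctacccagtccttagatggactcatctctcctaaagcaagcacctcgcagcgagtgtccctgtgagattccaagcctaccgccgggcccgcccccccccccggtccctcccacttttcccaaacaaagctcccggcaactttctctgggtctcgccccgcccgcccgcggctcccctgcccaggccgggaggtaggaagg
Yap1: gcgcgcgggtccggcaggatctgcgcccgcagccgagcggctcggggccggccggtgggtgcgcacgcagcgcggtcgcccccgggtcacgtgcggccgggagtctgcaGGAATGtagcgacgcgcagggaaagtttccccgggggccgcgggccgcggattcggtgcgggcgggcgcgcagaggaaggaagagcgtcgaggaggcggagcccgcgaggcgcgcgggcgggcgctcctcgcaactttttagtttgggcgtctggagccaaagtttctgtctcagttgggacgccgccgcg
Wwtr1: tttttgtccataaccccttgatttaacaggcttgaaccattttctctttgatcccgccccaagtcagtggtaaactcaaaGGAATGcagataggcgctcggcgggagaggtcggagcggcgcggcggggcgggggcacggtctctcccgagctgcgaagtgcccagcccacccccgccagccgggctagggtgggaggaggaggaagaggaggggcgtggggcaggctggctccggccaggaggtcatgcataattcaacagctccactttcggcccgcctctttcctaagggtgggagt

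Of the 10 genes, 8 had promoters in the RefSeq table, with 12 windows in all, some of them overlapping. Tead1 and Tead4 had no entry. The hexamer, searched on both strands, was present in 7 of these 8 genes (87.5%) against 16.6% of 27025 genes with a promoter, and in 9 of the 12 windows (75%), against 14.7% of 32851 promoters of the same length. The genes include known YAP and TAZ targets (Ankrd1, Lats2 and Amotl2), so these shares were not independent of how the genes were chosen. Ajuba held 2 copies, both on the minus strand relative to the gene, starting at positions -186 and -164, where the start is position 0. Ankrd1 held 2 copies on the plus strand, at -210 and -123. The Tead3 window shown held 3, at -123 and -114 on the minus strand and at 2 on the plus strand. It was chosen as the Tead3 window with the most copies, and the other Tead3 windows held 1 and none. Yap1 held 1 at -141, Wwtr1 1 that lay in both of its overlapping windows, Amotl2 1 at -65 and Lats2 1 at 4 in a window, with none in its other window. Tead2 was the gene without a copy. The AP-1 type motif TGANTCA, which factors that often act beside TEAD bind, was in none of the 8 genes, against 8.97% of all genes with a promoter (7.81% of promoters). Such a match is a run of letters in a window and was not tested for binding.

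**Figure D1:**
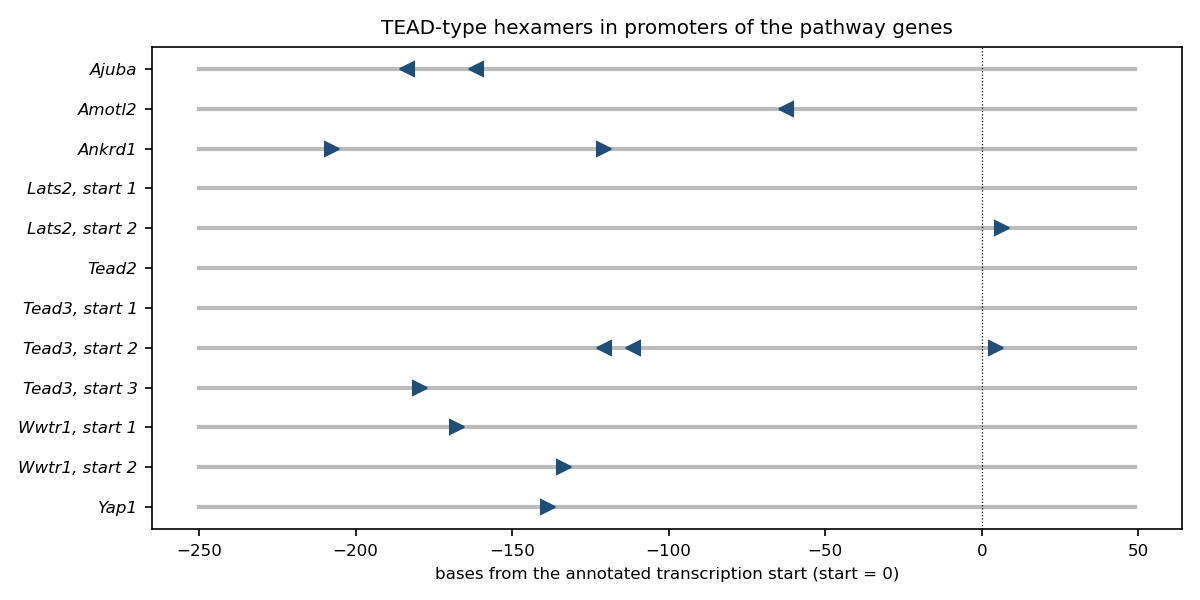
Copies of the hexamer GGAATG in the RefSeq promoter windows of 8 pathway genes, drawn as distance in bases from the transcription start (0); triangles pointing right are copies on the strand of the gene and triangles pointing left are on the other strand. Ajuba and Ankrd1 hold 2 copies each, the windows of Tead3 hold 0, 3 and 1, and Tead2 holds none.

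To compare the pathway between genotypes, the 10 genes were read from a fit over all 15376 genes that passed the filter. Ajuba, Ankrd1 and Tead2 fell in cKO cells, to 61.1%, 67.1% and 76.3% of the WT mean. Wwtr1, Tead3 and Yap1 rose by smaller amounts, to 112%, 116% and 110.5%. Tead1, Tead4, Lats2 and Amotl2 did not pass the test. In all, 6 of 10 genes passed (60%), 3 in each direction, beside 43.7% of all tested genes (21.9% higher and 21.8% lower). The CPM of the groups did not overlap for 7 of the 10 genes, beside 53.5% of all tested genes. The called share thus exceeded the background by less than 2 genes in 10. The median log2 fold change of the 10 genes, -0.01, was close to that of all tested genes (0.00). Changes larger in size than that of Ajuba were found in 11.8% of all tested genes, larger than that of Ankrd1 in 16.5% and larger than that of Tead2 in 28.2%.

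**Figure D2:**
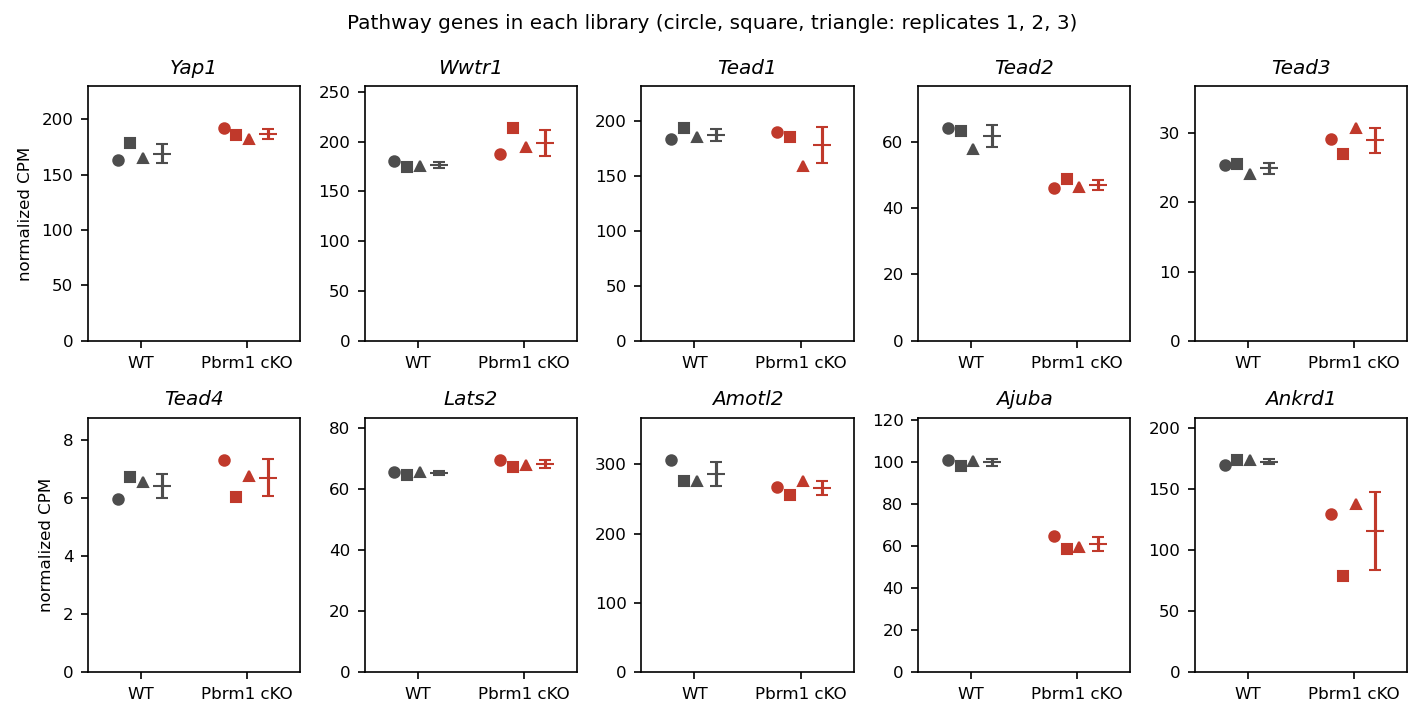
Normalized CPM of the 10 pathway genes in each library (circles, squares and triangles are replicates 1, 2 and 3), with the mean and SD (n = 3) beside each group and every vertical axis starting at 0. Ajuba, Ankrd1 and Tead2 lie lower in all 3 cKO libraries than in any WT library, and the cKO spread of Ankrd1 comes from replicate 2 at 78.8 CPM.

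Levels were compared between genes as TPM, counts scaled by exon length to a common total in each library. The most abundant transcript of the group in WT cells was that of Ankrd1 (309 ± 4.25 TPM), followed by Amotl2 (144 ± 8.65), Wwtr1 (117 ± 1.87), Ajuba (86.8 ± 1.38), Yap1 (57.8 ± 2.89), Tead1 (43.8 ± 1.27), Tead2 (40.7 ± 2.19), Lats2 (29.7 ± 0.24), Tead3 (17.98 ± 0.56) and Tead4 (5.65 ± 0.36; all SD, n = 3). The WT ranges of neighbors in this order did not overlap, with Tead1 (42.8 to 45.2 TPM) and Tead2 (38.2 to 42.2) the closest pair. In cKO cells the order differed. Yap1 (61.0 to 64.9 TPM) lay above Ajuba (49.9 to 55.8), while Amotl2 (126 to 136) overlapped Wwtr1 (123 to 139). Tead2 (30.0 to 31.6) overlapped Lats2 (30.0 to 31.3) only with Lats2 scaled by all its 6971 exon bases. Reads were counted in only 4016 of these, as described below. Scaled by those, Lats2 was at 51.6 TPM in WT and 53.0 TPM in cKO, above Tead1 and Tead2 in both groups. Ankrd1, at 204 ± 56.7 TPM, had the highest mean, but its lowest library (139 TPM, cKO replicate 2) was level with Wwtr1 in the same library. These TPM depend on the length used. Scaled by the longest annotated transcript, Yap1 was at 83.3 TPM in WT and already above Ajuba at 76.6 TPM. By that scaling, Ankrd1 came to 146 TPM and Amotl2 to 154 TPM in cKO. The longest Ankrd1 transcript (2020 bases, GENCODE M21) exceeds the 1765 exon bases in which its reads were counted. That scaling thus understates Ankrd1 and does not settle its order against Amotl2.

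The coactivator genes were examined first among the pathway genes. Yap1 (ENSMUSG00000053110.13; GRCm38 chromosome 9, minus strand, 7931999 to 8004596) measured 164, 179 and 165 CPM in WT replicates 1, 2 and 3 and 192, 186 and 182 CPM in cKO replicates 1, 2 and 3. All cKO libraries lay above all WT libraries, with WT replicate 2 closest to them. The mean rose from 169 ± 8.29 to 187 ± 4.68 CPM (SD, n = 3), with a log2 fold change of 0.14 (SE 0.048) and an adjusted p of 0.0253 in edgeR. The adjusted p reached 0.111 without WT replicate 1, 0.101 without WT replicate 3 and 0.0991 without cKO replicate 1, so the call was lost without any of these libraries. With 1 library left out, the log2 fold change of Yap1 stayed between 0.12 and 0.18.

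Wwtr1, which encodes TAZ (chromosome 3, minus strand, 57455649 to 57575910), measured 180, 175 and 175 CPM in WT libraries and 188, 213 and 195 CPM in cKO. The WT libraries lay close together and below all cKO libraries, of which replicate 2 was highest. The mean rose from 177 ± 3.11 to 199 ± 13.0 CPM (SD, n = 3), with a log2 fold change of 0.17 (SE 0.051) and an adjusted p of 0.0159 in edgeR. That call was lost without WT replicate 2 (adjusted p = 0.0628) or WT replicate 3 (0.0587). Summed per length, Yap1 and Wwtr1 were at 175 ± 2.22 TPM in WT and 192 ± 7.67 TPM in cKO (SD, n = 3), with no overlap between the groups (exact permutation test, two-sided p = 0.1, the smallest p that 3 against 3 libraries allow). The share of Yap1 in this sum was 33.0% ± 1.35 in WT and 32.7% ± 1.71 in cKO, and the libraries of the groups overlapped (exact permutation p = 0.7). The level of this share depended on the length used. Scaled by the longest annotated transcript it was 45.9% in WT and 45.6% in cKO. Of raw counts it was 48.9% in WT and 48.5% in cKO.

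Yap1 lies 895 kb from Pgr, the progesterone receptor gene that carries the cre, on the same chromosome. Pgr itself went from 174 to 168 CPM (log2 fold change -0.05 with SE 0.056, adjusted p = 0.508 by edgeR). Within 2 Mb of Pgr, 13 of 19 tested genes were called, 10 higher and 3 lower in cKO, counting Yap1 itself among the higher ones, beside 43.7% of all tested genes (21.9% higher and 21.8% lower). The higher ones included Mmp3, Mmp8, Mmp12 and Mmp13, which lie in 1 cluster, and the adjacent Birc2 and Birc3. Calls of such neighbors may not be independent. Between Yap1 and Pgr, Cfap300 was higher (0.37, adjusted p = 0.0039) and Trpc6, which encodes a cation channel (-1.30, adjusted p = 5.24e-07), and Gm32014 (-0.41, adjusted p = 0.0398) were lower (log2 fold changes, edgeR). The part of this neighborhood in the values of Yap1 was not tested.

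The TEAD genes did not move together. Tead2 (chromosome 7, plus strand, 45215753 to 45233644) measured 63.9, 63.1 and 57.7 CPM in WT libraries and 45.9, 48.6 and 46.4 CPM in cKO. All cKO libraries lay well below the lowest WT library, replicate 3. The mean fell from 61.6 ± 3.37 to 47.0 ± 1.47 CPM (SD, n = 3), with a log2 fold change of -0.39 (SE 0.058) and an adjusted p of 0.000107 in edgeR. Tead2 was also the gene whose printed promoter lacked the hexamer. The call held in all 14 alternatives, with log2 fold changes from -0.44 to -0.36.

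Tead3 (chromosome 17, minus strand, 28331671 to 28350805) measured 25.4, 25.5 and 24.1 CPM in WT libraries and 29.1, 27.1 and 30.7 CPM in cKO. The groups did not overlap, but WT replicate 2 and cKO replicate 2 lay close to each other. The mean rose from 25.0 ± 0.79 to 29.0 ± 1.82 CPM (SD, n = 3), with a log2 fold change of 0.21 (SE 0.070) and an adjusted p of 0.0257 in edgeR. DESeq2 did not call Tead3 (adjusted p = 0.102), and edgeR did not call it in 5 of 6 fits without 1 library, with adjusted p-values of 0.0549, 0.0517, 0.0948, 0.0701 and 0.0994 without WT replicates 1, 2 and 3 and cKO replicates 1 and 3.

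The other two TEAD genes did not pass the test. Tead1 (chromosome 7, plus strand, 112679318 to 112906807) measured 184, 193 and 185 CPM in WT libraries and 190, 186 and 160 CPM in cKO. Only cKO replicate 3 lay apart from the rest, and the groups overlapped (log2 fold change -0.07 with SE 0.060, adjusted p = 0.381 by edgeR). Tead4 (chromosome 6, minus strand, 128224288 to 128300823) measured 5.97, 6.74 and 6.56 CPM in WT libraries and 7.31, 6.05 and 6.76 CPM in cKO, again with overlap (log2 fold change 0.06 with SE 0.12, adjusted p = 0.730 by edgeR). Its counts were the lowest of the 10 genes, at 101 to 130 per library.

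The TEAD genes were then compared as parts of their summed TPM, since TEAD factors are known to bind the same hexamer. Tead2 made up 38.9%, 37.5% and 36.5% of the sum in WT and 29.7%, 32.1% and 32.0% in cKO, with all cKO libraries below all WT libraries. Tead3 made up 16.8%, 16.5% and 16.6% in WT and 20.5%, 19.4% and 23.0% in cKO, with all cKO libraries above. The mean share of Tead2 was 6.42 percentage points lower in cKO (difference -6.42) and that of Tead3 4.36 points higher, each with an exact permutation p of 0.1, the smallest this design allows. Parts of 1 sum are tied, so a fall of Tead2 alone raises the share of Tead3, and these results are not independent. In TPM, Tead2 went from 40.7 to 30.6 and Tead3 from 17.98 to 20.5. As shares of raw counts, with no scaling by length, the differences were -3.93 points for Tead2 and 2.23 points for Tead3, in the same directions. The share of Tead1 was 40.5% ± 0.962 in WT and 41.8% ± 2.61 in cKO (SD, n = 3, exact permutation p = 0.4), or 66.9% and 68.3% of raw counts, and that of Tead4 5.23% ± 0.356 and 5.93% ± 0.544 (exact permutation p = 0.3). The summed TEAD level was 108 ± 3.35 TPM in WT and 97.9 ± 3.67 TPM in cKO (SD, n = 3), without overlap between the groups (exact permutation p = 0.1).

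**Figure D3:**
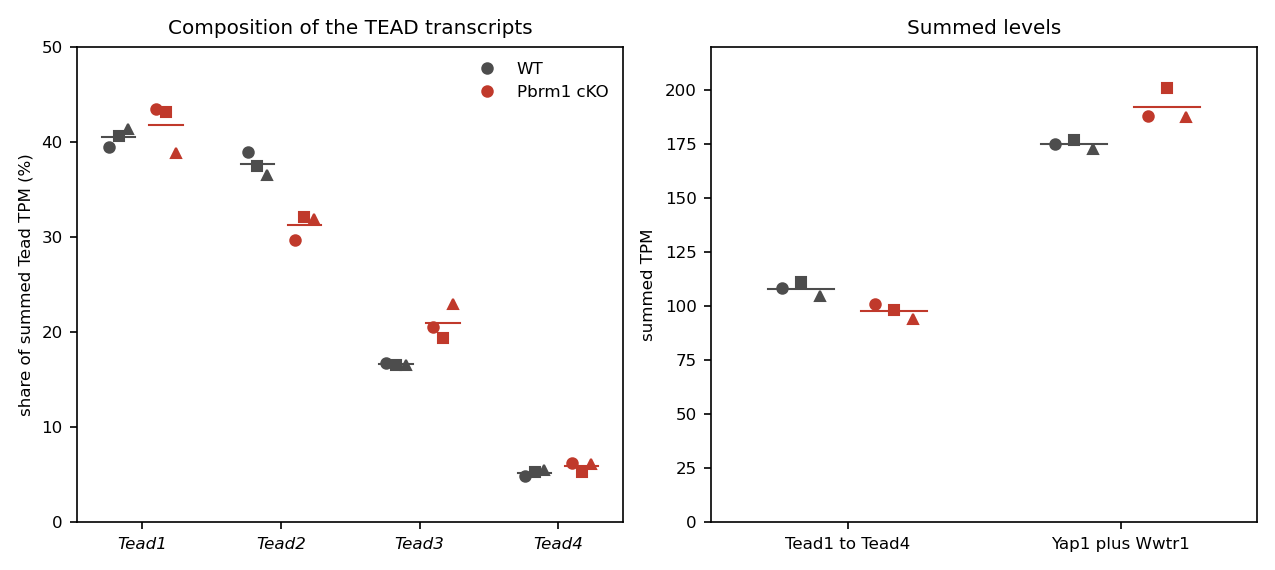
Left, share of each TEAD gene in the summed TPM of Tead1 to Tead4 in percent; right, summed TPM of the TEAD genes and of Yap1 plus Wwtr1, with 1 point per library (circle, square and triangle are replicates 1, 2 and 3) and lines at the group means. The share of Tead2 is lower and that of Tead3 higher in every cKO library than in any WT library, whereas Tead1 and Tead4 overlap.

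Of the inhibitors, Lats2, a kinase that phosphorylates YAP and TAZ and is itself a known target of theirs (chromosome 14, minus strand, 57689662 to 57758388), measured 65.6, 64.7 and 65.8 CPM in WT libraries and 69.7, 67.4 and 68.0 CPM in cKO. All cKO libraries lay slightly above all WT libraries, but the difference did not pass the test (log2 fold change 0.06 with SE 0.048, adjusted p = 0.304 by edgeR). Lats2 shares 2955 of its 6971 exon bases (42.4%) with the annotated gene Gm49361 on the same strand, and reads there were assigned to neither gene, so its level above was computed from reads of the remaining bases. Scaled by its 4016 unshared bases, Lats2 was at 51.6 ± 0.42 TPM in WT and 53.0 ± 1.22 TPM in cKO (SD, n = 3), which would place it above Tead1 and Tead2 in the order of levels in both groups. Gm49361 itself had no count in any library.

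Amotl2, an angiomotin family protein that holds YAP at junctions and is also a target (chromosome 9, plus strand, 102716672 to 102733418), measured 306, 275 and 275 CPM in WT libraries and 267, 255 and 275 CPM in cKO. WT replicate 1 was high and cKO replicate 2 low, and WT replicate 2 lay below cKO replicate 3. The difference did not pass the test (log2 fold change -0.10 with SE 0.052, adjusted p = 0.128 by edgeR).

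Ajuba, whose LIM-domain protein binds LATS kinases and restrains them (chromosome 14, minus strand, 54567472 to 54577558), showed the largest change of the 10 genes. It measured 101, 97.9 and 101 CPM in WT libraries and 64.8, 58.5 and 59.7 CPM in cKO. The libraries of each group lay close together and far from the other group. The mean fell from 99.9 ± 1.68 to 61.0 ± 3.36 CPM (SD, n = 3), with a log2 fold change of -0.71 (SE 0.052) and an adjusted p of 2.16e-07 in edgeR, and the call held in all 14 alternatives, with log2 fold changes from -0.76 to -0.68. The other members of the Ajuba family, Limd1 and Wtip, did not pass the test (log2 fold changes 0.09 and -0.15, edgeR adjusted p = 0.151 and 0.0575; both named after their values were seen). The printed promoter of Ajuba held a pair of hexamers, as did that of Ankrd1, while that of Tead3, which rose, held 3. Ajuba lies 23.4 Mb from Pbrm1 on the same chromosome. Stretches of up to 157 bases of Ajuba transcripts matched transcripts of other genes at 95% identity or more, which is short beside its exon length of 3646 bases.

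The 3 genes whose pattern over the 6 libraries was most like that of Ajuba, among 10604 genes, were Kif23 (Euclidean distance of centered log2 CPM 0.0856), Syne2 (0.105) and Ube2c (0.106). Kif23 went from 35.3 ± 0.37 to 22.4 ± 0.94 CPM, Syne2 from 148 ± 5.71 to 93.3 ± 7.50 CPM and Ube2c from 38.4 ± 1.73 to 22.9 ± 0.56 CPM (SD, n = 3). Cell cycle genes, a list drawn up beside the cell type markers, were lower in the same libraries. Of 15 such genes 14 passed the test, all lower, beside 21.8% of all tested genes that were lower. Their summed level ranged from 1283 to 1347 CPM in WT and from 845 to 851 CPM in cKO. Their part in the values of Ajuba was not tested.

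Ankrd1, a muscle ankyrin repeat protein gene and a widely used readout of YAP activity (chromosome 19, minus strand, 36111965 to 36119844), measured 170, 174 and 173 CPM in WT libraries and 130, 78.8 and 138 CPM in cKO. The WT libraries were nearly equal and all cKO libraries lay below them, with cKO replicate 2 far lower than the other two. The mean fell from 172 ± 2.09 to 115 ± 32.1 CPM (SD, n = 3), with a log2 fold change of -0.58 (SE 0.14) and an adjusted p of 0.00405 in edgeR. Without cKO replicate 2 the log2 fold change was -0.36 (adjusted p = 5.63e-06), and DESeq2 on all libraries did not call Ankrd1 (adjusted p = 0.0592). The exon counts of Ankrd1, at 1485 to 3247 per library, were not limiting.

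Other YAP and TAZ targets were listed from knowledge of the pathway, with these data already seen. Of 19 such genes, all tested, 16 passed the test (84.2%), 10 lower and 6 higher in cKO, beside 43.7% of all tested genes, and their median log2 fold change was -0.14 (0.00 for all tested genes). The matricellular protein genes Ccn2 (CTGF) and Ccn1 (CYR61), the best known targets, were both lower. Ccn2 ranged from 1699 to 1767 CPM in WT and from 1312 to 1369 CPM in cKO (log2 fold change -0.36 with SE 0.042, adjusted p = 1.31e-05 by edgeR). Ccn1 ranged from 1666 to 1727 CPM in WT and from 1529 to 1559 CPM in cKO (log2 fold change -0.14 with SE 0.041, adjusted p = 0.0139 by edgeR), a call that was lost without WT replicate 2 (adjusted p = 0.0654). For both genes cKO replicate 2 lay with the other cKO libraries, unlike for Ankrd1. Axl, a listed target of similar CPM, was higher, from 1359 to 1499 CPM (log2 fold change 0.14, adjusted p = 0.0114 by edgeR).

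The listed target that changed most in size among those at 5 CPM or more was Nt5e, which encodes the ecto-5′-nucleotidase CD73. It fell from 40.5 to 45.8 CPM in WT to between 12.5 and 15.2 CPM in cKO (log2 fold change -1.63 with SE 0.083, adjusted p = 7.57e-09 by edgeR). Lower as well were Ptpn14, a phosphatase that binds and restrains YAP (-0.67), Fjx1, a Golgi protein of the Fat and Dachsous system (-0.66), Igfbp3, an IGF-binding protein (-0.59), and Crim1, a membrane protein that binds BMPs (-0.47; log2 fold changes). Foxf2, a forkhead factor of mesenchyme, fell by 2.01 on the log2 scale from a WT mean of 1.34 CPM, and its lowest library held 3 counts. In the other direction, Ccdc80, a matrix protein gene, rose from 299 ± 12.3 to 407 ± 9.67 CPM (0.44), and F3, which encodes tissue factor, rose from 185 ± 3.98 to 247 ± 13.5 CPM (SD, n = 3; 0.42). In the same libraries 9 of 12 fibroblast markers were higher and 1 lower, and 9 of 15 genes that respond to tissue dissociation were higher and 1 lower. Of all tested genes, 21.9% were higher and 21.8% lower. The dissociation genes had a summed level of 826 to 913 CPM in WT and 1056 to 1188 CPM in cKO. The part of both lists in the values of the targets was not tested.

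**Figure D4:**
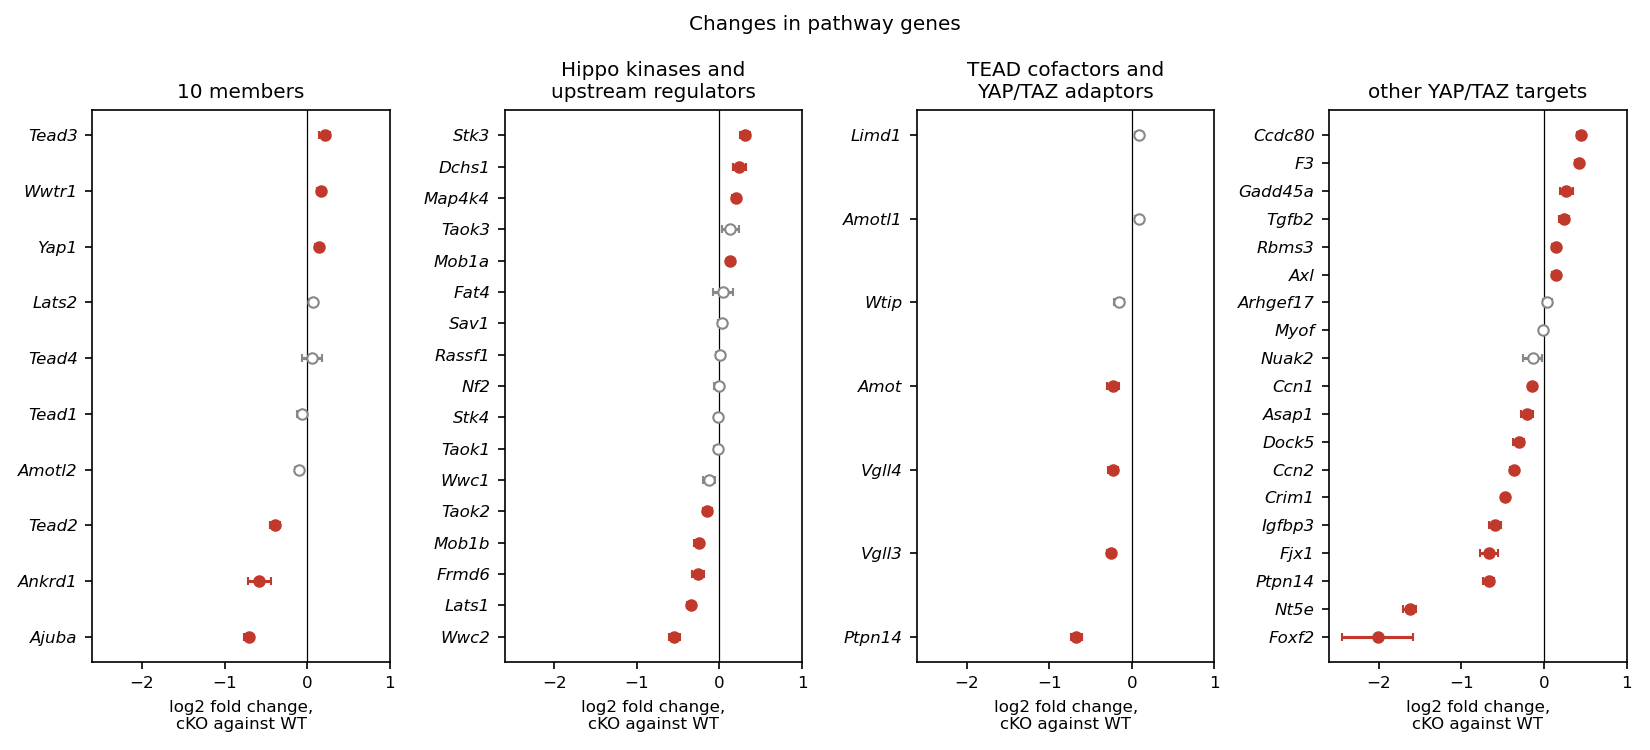
Log2 fold change of cKO against WT (horizontal axis; bars are ± SE) of the 10 pathway genes, 17 Hippo kinase and upstream genes, 7 tested TEAD cofactor and adaptor genes and 19 other YAP and TAZ targets; filled points passed the edgeR test and open points did not. Calls in the kinase panel lie on either side of 0, the 4 called cofactor and adaptor genes lie below 0, and 10 of the 16 called targets lie below 0.

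The kinases and regulators upstream of YAP and TAZ were mixed. Of 17 genes, all tested, 9 passed the test (52.9%, beside 43.7% of all tested genes), 4 higher and 5 lower (median log2 fold change -0.01). Lats1, the other LATS kinase gene, fell from 190 ± 5.78 to 150 ± 7.44 CPM (SD, n = 3), with a log2 fold change of -0.34 (SE 0.049) and an adjusted p of 7.45e-05 in edgeR, and the groups did not overlap, at 185 to 196 CPM and 143 to 158 CPM. Wwc2, a scaffold of the KIBRA family that promotes LATS activity, fell from 160 to 110 CPM (-0.54), and Mob1b, a cofactor of LATS, from 77.4 to 64.9 CPM (-0.25). Frmd6, a FERM-domain protein of the upper pathway (-0.26), and Taok2, a kinase that acts on the MST kinases (-0.15), were also lower. Stk3, which encodes the kinase MST2, rose from 51.0 to 63.2 CPM (0.31), and Map4k4, a kinase that acts on LATS beside the MST kinases (0.20), and Dchs1, a protocadherin (0.24), were higher. Unlike Mob1b, the other listed MOB1 gene, Mob1a, was higher, from 270 to 296 CPM (0.13, edgeR adjusted p = 0.0247). The calls of Frmd6, Taok2 and Dchs1 were lost in 2, 5 and 4 of 14 alternatives, with Dchs1 at 0.13 without cKO replicate 2, and the count of 9 became 5 without WT replicate 2.

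Among cofactors that bind TEAD in place of YAP and among adaptors of YAP and TAZ, 7 of 9 listed genes were tested and 4 passed (57.1%), all lower, beside 21.8% of all tested genes that were lower (median log2 fold change -0.23). Vgll3, a TEAD cofactor abundant in mesenchyme, fell from 292 ± 4.07 to 245 ± 14.3 CPM (SD, n = 3), with a log2 fold change of -0.25 (SE 0.048) and an adjusted p of 0.000837 in edgeR. Vgll4, which competes with YAP for TEAD, fell from 58.0 ± 2.07 to 49.3 ± 3.26 CPM (SD, n = 3), with a log2 fold change of -0.23 (SE 0.060) and an adjusted p of 0.00679 in edgeR. Amot, which encodes angiomotin, fell from 34.8 to 29.6 CPM (-0.23, edgeR adjusted p = 0.0218), a call lost without WT replicate 1 (0.0641), WT replicate 2 (0.0857) or cKO replicate 3 (0.0902). Ptpn14, counted in this list and among the targets, fell from 75.5 ± 2.01 to 47.3 ± 4.10 CPM (SD, n = 3), with a log2 fold change of -0.67 (SE 0.063) and an adjusted p of 1.88e-06 in edgeR. Vgll1 had no count in any library, and Vgll2 did not pass the filter, with at most 2 counts.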

How the data were processed

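The deposited table held raw counts of reads for each gene, as whole numbers, and the exon length of the gene, with a column for each of 6 libraries of stranded RNA-seq. Per the file headers, featureCounts 1.6.4 was run in reverse-stranded mode on GENCODE M18 exons, and its defaults left out reads that matched several places or several genes of 1 strand. The submitters' processing notes name cutadapt, HISAT2 and GRCm38. Symbols were taken from GENCODE M21 and promoters from RefSeq.

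Counts of all genes were tested by the two-sided quasi-likelihood F-test of edgeR 4.0.16 (R 4.3.3) after TMM scaling and filterByExpr, with Benjamini-Hochberg adjustment over 15376 genes and a threshold of 0.05. CPM were scaled by TMM, and TPM were computed from the deposited counts and exon lengths. An SE was obtained as the size of the log2 fold change over the square root of F. Shares and sums were compared by exact permutation tests. Shared sequence was searched with BLAST 2.17.0 among M21 transcripts (95% identity, at least 100 bases). Replicate libraries differed beyond sampling noise (chi-square per gene 1.28 to 1.59 over 2239 genes). The fit was tested on simulated data. Limits given by 3 counts cover counting error only, since reads carried no molecular identifiers.

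The 10 genes and all lists were chosen with earlier results of these data known, and lists were described by counts. Named were the 10 genes, Pbrm1, the called genes of each list up to the 8 of largest change, Lats1, Vgll3, Ccn1 and Ccn2, called genes between Yap1 and Pgr, and the 3 genes of at least 5 CPM most like the gene of largest change. Limd1, Wtip, Mob1a, Axl and the Mmp and Birc genes near Pgr were named after their values were seen. Alternatives were DESeq2 1.42.0, limma-voom (3.58.1), other scalings and filters, a threshold of 0.01, the replicate number as a block, and each library left out. The protein comparison that had been planned was not made here.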

Additional observations from a re-analysis of the deposited data

How the results depend on the processing

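Across 14 alternatives, the calls of Tead2, Ajuba and Pbrm1 held, and Tead1, Tead4, Lats2 and Amotl2 were called in none. DESeq2 lost Tead3 (log2 fold change 0.21, adjusted p = 0.102) and Ankrd1 (-0.58, adjusted p = 0.0592). With 1 library left out, log2 fold changes ranged from 0.12 to 0.18 for Yap1 (lost in 3 of 6 fits), from 0.12 to 0.21 for Wwtr1 (lost in 2), from 0.17 to 0.26 for Tead3 (lost in 5), from -0.73 to -0.36 for Ankrd1 (lost in none), from -0.12 to 0.0043 for Tead1, reversed without cKO replicate 3, and from -0.0095 to 0.14 for Tead4, reversed without cKO replicate 1. The difference in the share of Yap1 ranged from -1.20 to 0.498 percentage points, at 0.427 without WT replicate 2 and 0.498 without cKO replicate 2, and that of Tead1 from 0.535 to 2.86 points. As shares of raw counts, Tead2 differed by -3.93 and Tead3 by 2.23 points.

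Of the 10 genes, 3 were called at an adjusted p under 0.01, and between 3 and 6 with 1 library left out, 3 of them without WT replicate 3. DESeq2 called 4. The kinase list had 5 to 8 calls with 1 library left out. The count over all genes was 4665 at a threshold of 0.01 and 5532 to 7054 with 1 library left out. Scalings moved the median of all genes by at most 0.02 on the log2 scale. Among 30 other results with 419 values, 15 calls were lost and none reversed, and the count of called epithelial markers went from 7 to 4 without WT replicate 1.

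The labels give both groups the same replicate numbers but no pairing. Correlations of same-numbered deviations were -0.048, 0.0828 and 0.187 over 11023 genes, and WT replicates 1 and 2 each correlated best with another number. With the replicate block, 6908 genes and the same count of 6 pathway genes were called, with log2 fold changes of 0.14 for Yap1, 0.17 for Wwtr1, -0.39 for Tead2, 0.21 for Tead3, -0.71 for Ajuba and -0.61 for Ankrd1. No paired test was made of the shares. Lengths from the longest transcript and the unshared bases of Lats2 were chosen after seeing the data. Depth limited Tead4, Vgll2 and Foxf2 most.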

Other observations

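The hexamer GGAATG was also counted in promoters of the other pathway genes, with no test. It was in 5 of 8 cofactor and adaptor genes with a RefSeq promoter (62.5%), in 4 of 12 listed targets (33.3%) and in 3 of 14 kinase and upstream genes (21.4%), beside 16.6% of all 27025 genes. Among tested genes it was in 16.9% of those higher in cKO, in 13.7% of those lower and in 14.0% of those not called. The pathway genes with copies included some that rose (Yap1, Wwtr1, Tead3), some that fell (Ajuba, Ankrd1) and some that did not pass the test (Lats2, Amotl2), and Tead2, which fell, had none.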
